A study of Mus musculus with 8 samples.

Results

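The nuclear genes of respiratory complex I were read by 53 probes of the array, which carried 40 gene symbols that start with Nduf, out of 25697 probes and 16593 gene symbols in the table. The members were chosen by the start of the symbol and not by their values, though with earlier results of these data known. They held 43 probes for 33 complex I subunit genes, 8 probes for 5 assembly factor genes, 1 probe for Ndufa4 and 1 probe named for the pseudogene Ndufs5-ps. Ndufa11, Ndufb1, Ndufa4l2, Ndufaf2, Ndufaf6 and Ndufaf8 were not analysed here. The cells were a single immortalized line of mouse brown adipocytes, taken after 8 days of differentiation. Vehicle samples received DMSO and treated samples received 10 µM of the compound Z16078526, each for 18 h, with 4 arrays per group. Whether those 4 were independent cultures is not stated in the labels, and the p-values therefore reflect a spread that may be technical. Values are log2 intensities of single probes, on a scale where 4 is the floor (an intensity of 16).

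Complex I, NADH:ubiquinone oxidoreductase, is the entry point of electrons from NADH into the respiratory chain of the inner mitochondrial membrane. Its peripheral arm holds the N module, where NADH is oxidised, and the Q module, where ubiquinone is reduced. Its membrane arm pumps protons and has a proximal and a distal part. The core subunits carry the catalysis and the supernumerary subunits surround them, while assembly factors help to build the enzyme and are absent from its final form. Brown fat is rich in mitochondria, and its respiratory chain supplies the proton gradient that uncoupled heat production consumes.

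Signal for complex I genes was higher in treated cells. Of the 53 Nduf probes, 29 passed an adjusted p of 0.05 in limma as higher and 0 as lower, where 6.76% of all probes of the table were called higher and 5.92% lower. At an unadjusted p under 0.05 the counts were 38 higher and 1 lower, beside 3092 higher and 2811 lower among all 25697 probes. Counted once per gene by the brightest probe, 24 of 40 genes rose, against 7.61% of all genes. The groups did not overlap, with treated higher, in 33 Nduf probes, and in 9.39% of all probes. Most rises were small: the median log2 difference was 0.23 over the 50 probes above the floor on all arrays, beside 0.01 over the 11546 such probes of the table, and the range ran from -0.39 to 1.26. Without DMSO 3, and likewise without treated 2, 17 Nduf probes and 13 genes were called higher. Of all probes, 1738 were called higher and 1520 lower, which became 1108 and 1091 without DMSO 3, 1086 and 982 without treated 2, and 1141 and 1013 without DMSO 1.

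**Figure D1:**
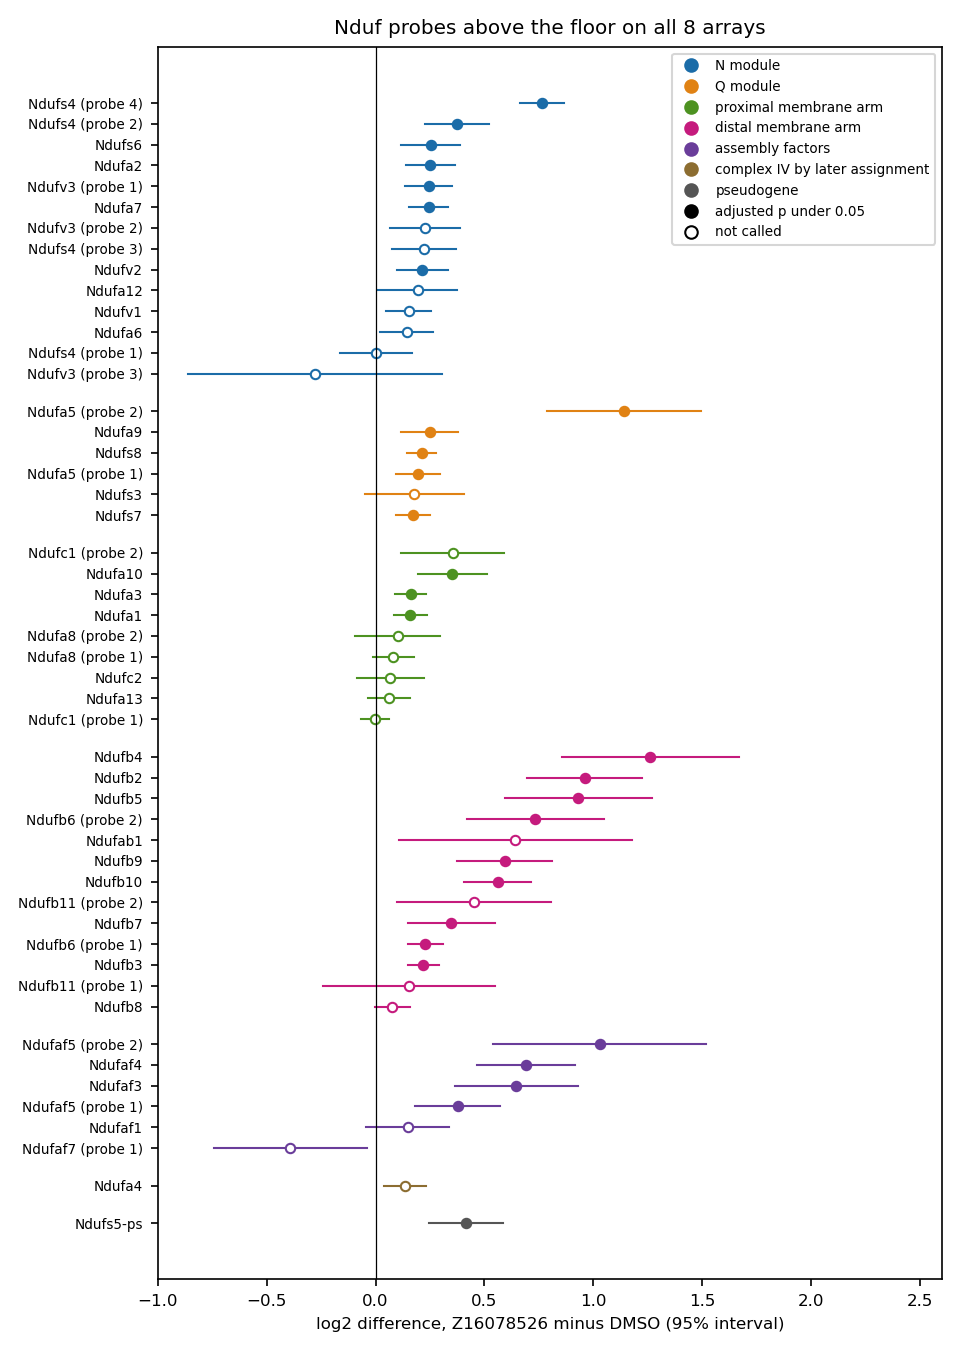
Log2 difference between Z16078526 and DMSO (x axis) for each of the 50 Nduf probes above the floor on all 8 arrays, grouped by the part of complex I. Points are differences of means over 4 arrays per group, bars are 95% intervals from the limma fit, and filled points passed an adjusted p of 0.05. Probe numbers rank the probes of a gene from the brightest, and the filled points all lie above 0.

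The identity of the cells and the state of the arrays were checked on the same data. Across probes, r between DMSO arrays was 0.9953 to 0.996. Between treated arrays it was 0.9901 to 0.9941, and a DMSO array against a treated array gave 0.9852 to 0.9917. All 6 adipocyte markers were above the floor, with Adipoq at a mean log2 of 14.48 in DMSO. Among the 9 brown fat markers, Cox7a1 was at 14.33 in DMSO and Ucp1 at 4.87, and no array read Dio2 or Prdm16 above the floor. Of this list Ucp1, Cidea and Cox8b rose and 0 fell, and its summed intensity was 23360 to 25360 in DMSO and 25030 to 26550 in treated cells. Of the adipocyte list Fabp4 and Cidec rose and Pparg fell. Of 8 preadipocyte and fibroblast markers, 2 fell (Dcn and Vim) and 0 rose, and their summed intensity was 14000 to 16060 on the DMSO arrays and 8857 to 12170 on the treated arrays. Thy1, one of this list, was never above the floor. The summed adipocyte markers spanned 39180 to 41660 in DMSO and 39430 to 42310 in treated cells, ranges that overlap. Among all probes between a log2 of 7 and 10, 804 of 5050 were called higher and 670 lower. Between 10 and 12 these were 539 and 477 of 2478, and over 12 they were 172 and 163 of 1013. The marker lists are short, and their counts were not tested against these shares. The part of the marker differences in the complex I values was not tested. In such bulk samples, fewer cells of a type and less RNA per cell cannot be told apart. Of 3 immune markers measured, Ptprc was at the floor on every array, and Adgre1 and Cd3e were above it on 1 treated array each. Of 3 endothelial markers, Kdr and Cdh5 were at the floor on every array and Pecam1 was above it on 4, at up to a log2 of 5.05.

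Since many members moved together, their promoters are shown for the members with the largest rises by the brightest probe and for a pair that shares a motif. RefSeq windows of 250 bases before to 50 after a transcript start (GRCm38.p6) were matched for 36 of the 40 symbols, in 38 windows. The core letters GCGCATGCG of the NRF1 site (nuclear respiratory factor 1, a known activator of respiratory chain genes) were in 3 member windows (7.89%), those of Ndufaf4, Ndufaf5 and Ndufa8, and in 1.75% of all 32851 windows. The letters AAGATGGCG of YY1, a zinc finger factor, were in 5 (13.2%), those of Ndufa9, Ndufc1, Ndufs4, Ndufs6 and Ndufs7, against 1.40%. The ETS family letters CCGGAAG were in 5 (13.2%) against 8.86%, and the letters TCAAGGTCA of the estrogen-related receptors in 0 against 0.42%. Both strands were searched, and a match describes letters and not a bound site. Of the 3 genes with the NRF1 letters, Ndufaf4 and Ndufaf5 rose and Ndufa8 did not pass. Rises were also called for 3 of 5 genes with the YY1 letters and 3 of 5 with the ETS letters. Of all 40 Nduf genes, 24 rose by their brightest probe. The sequences below are the 250 bases before the start on the gene's own strand, 5′ to 3′, with matches to the 4 motifs in capitals. Ndufb4 lies at chr16:37654369-37654618 (minus strand), Ndufb2 at chr6:39592315-39592564 (plus strand), Ndufaf4 at chr4:24897833-24898082 (plus strand) and Ndufa8 at chr2:36049339-36049588 (minus strand).
Ndufb4: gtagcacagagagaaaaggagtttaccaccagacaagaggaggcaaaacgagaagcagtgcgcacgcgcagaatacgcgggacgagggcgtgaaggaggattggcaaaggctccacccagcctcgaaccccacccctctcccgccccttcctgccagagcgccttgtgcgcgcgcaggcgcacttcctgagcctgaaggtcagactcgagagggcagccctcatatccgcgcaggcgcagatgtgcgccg
Ndufb2: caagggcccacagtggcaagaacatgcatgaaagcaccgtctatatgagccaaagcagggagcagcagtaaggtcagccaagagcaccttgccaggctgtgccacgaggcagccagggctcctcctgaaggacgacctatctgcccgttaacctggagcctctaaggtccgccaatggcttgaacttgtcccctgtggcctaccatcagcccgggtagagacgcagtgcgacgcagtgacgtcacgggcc
Ndufaf4: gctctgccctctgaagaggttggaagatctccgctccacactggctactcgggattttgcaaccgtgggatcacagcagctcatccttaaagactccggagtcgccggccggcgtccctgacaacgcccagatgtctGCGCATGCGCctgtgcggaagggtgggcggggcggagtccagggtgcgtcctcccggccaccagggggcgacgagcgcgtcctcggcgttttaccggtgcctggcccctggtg
Ndufa8: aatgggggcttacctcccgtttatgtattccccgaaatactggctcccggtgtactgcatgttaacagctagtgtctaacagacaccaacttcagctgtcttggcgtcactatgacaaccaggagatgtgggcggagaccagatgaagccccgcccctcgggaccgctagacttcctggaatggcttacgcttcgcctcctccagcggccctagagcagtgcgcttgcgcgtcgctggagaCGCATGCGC

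The windows of Ndufb4 and Ndufb2, whose signal rose most by the brightest probe of each gene, hold none of the 4 exact letter strings. Other spellings of these sites were not searched, so such sites may still be present. In Ndufaf4 the capitals are a run of 10 bases that matches the NRF1 letters on both strands, with its first base at position -113 from the transcript start. In Ndufa8 the match takes up the last 9 bases before the start.

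In the N module, the site of NADH oxidation, 5 of 10 genes rose by their brightest probe and 0 fell. Of all genes, 7.61% were called higher in this way, and of all probes over a log2 of 12, 17%. Accounts differ on the placement of Ndufa6, Ndufa7, Ndufa9 and Ndufa12. Here Ndufa9 was counted in the Q module and the others in the N module, and module counts depend on this choice. Median log2 difference over the 9 genes above the floor was 0.22. The iron-sulfur subunit gene Ndufv2 rose 1.16-fold (log2 0.22 ± 0.05 SE, adjusted p = 0.0332), and the supernumerary genes Ndufa7 (1.18-fold, 0.24 ± 0.04, adjusted p = 0.00914), Ndufa2 (1.19-fold, adjusted p = 0.0167) and Ndufs6 (1.19-fold, adjusted p = 0.0309) rose as well. In all 4 every treated array lay above every DMSO array. Ndufv1, which holds the flavin that takes electrons from NADH, had 13.85, 13.80, 13.73 and 13.84 on the DMSO arrays and 13.89, 13.91, 14.04 and 13.97 on the treated arrays. Its groups did not overlap, but the difference of 0.15 ± 0.04 did not pass (adjusted p = 0.0784). Ndufa12 (0.19, adjusted p = 0.182) and Ndufa6 (0.14, adjusted p = 0.139) did not pass either, although Ndufa6 passed without treated 3 (0.0431). The single probe of Ndufs1, the largest iron-sulfur subunit, lay at the floor on all 8 arrays, so it gives no level for this core gene. Of these calls, Ndufa7 kept an adjusted p under 0.05 whichever array was left out, Ndufa2 lost it without treated 2 (0.0556), Ndufs6 without any array but treated 1 (up to 0.0917) and Ndufv2 without any array but DMSO 2 (up to 0.0977).

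Ndufs4, a supernumerary subunit that helps to hold the N module on the enzyme, was read by 4 probes, and they disagreed. The brightest had 12.99, 13.12, 13.10 and 13.13 in DMSO and 13.23, 13.15, 12.95 and 13.03 in treated cells, a log2 difference of 0.00 (95% interval -0.16 to 0.17). The dimmest had 11.04, 11.21, 11.05 and 11.09 in DMSO and 11.92, 11.87, 11.82 and 11.85 in treated cells. The first probe overlapped between the groups and the last did not. The last probe rose 1.70-fold (0.76 ± 0.04, adjusted p = 0.000524), the smallest adjusted p of all 53 probes. The second probe rose 1.30-fold (0.37 ± 0.06, adjusted p = 0.0113), and the third, at 0.22 ± 0.06, did not pass (adjusted p = 0.0639) although its groups did not overlap. When the 4 probes were averaged, Ndufs4 was called higher (0.34, adjusted p = 0.00536).

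Ndufv3, a small N module subunit, also gave unequal readings. Its brightest probe had 14.09, 13.92, 14.01 and 14.04 in DMSO and 14.26, 14.23, 14.22 and 14.33 in treated cells, and rose 1.18-fold (0.24 ± 0.05, adjusted p = 0.0166) without overlap of the groups. This call ended without DMSO 3 (adjusted p = 0.0538). The second probe differed by 0.23 ± 0.07 and did not pass (adjusted p = 0.0841), but passed without DMSO 4 (0.0113), whose value of 14.03 was the highest of its group and above treated 1. The third and dimmest probe went the other way, with 8.93, 9.22, 9.34 and 9.51 in DMSO and 9.56, 9.06, 8.50 and 8.78 in treated cells. Those groups overlapped, and the difference of -0.28 ± 0.24 did not pass (adjusted p = 0.713). With the mean of the 3 probes, Ndufv3 was not called (0.06, adjusted p = 0.909).

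The Q module, which passes electrons to ubiquinone, had 4 of 5 genes higher and 0 lower by the brightest probe, with a median log2 difference of 0.20. The shares called higher were 7.61% of all genes and 17% of all probes over a log2 of 12. The core gene Ndufs8, which encodes a subunit with a pair of iron-sulfur clusters, had 13.20, 13.24, 13.17 and 13.14 in DMSO and 13.41, 13.37, 13.39 and 13.44 in treated cells. All treated arrays lay above all DMSO arrays, and the rise of 1.16-fold (0.21 ± 0.03, adjusted p = 0.00508) held with each array left out. Ndufs7, the subunit of the last iron-sulfur cluster before ubiquinone, rose 1.13-fold (0.17 ± 0.03, adjusted p = 0.018), a call that was lost without DMSO 3, DMSO 4 or treated 2 (up to 0.0598). Ndufa9 rose 1.19-fold (0.25 ± 0.05, adjusted p = 0.0312), but only treated 1 could be left out without the call ending (up to 0.0919). Ndufs3, the other core subunit of this module measured here, overlapped between the groups (0.18 ± 0.09, adjusted p = 0.366).

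Ndufa5, a supernumerary Q module subunit, was the clearest case of probes that agreed in direction and not in size. Its brighter probe had 13.67, 13.55, 13.68 and 13.62 in DMSO and 13.86, 13.89, 13.80 and 13.77 in treated cells, a rise of 1.14-fold (0.20 ± 0.04, adjusted p = 0.0286) that lasted only when treated 4 was the array left out (up to 0.0797). Its dimmer probe had 8.80, 9.44, 8.86 and 9.01 in DMSO and 10.06, 10.30, 10.09 and 10.21 in treated cells, a rise of 2.20-fold (1.14 ± 0.15, adjusted p = 0.00482). Neither probe overlapped between the groups, and the dimmer one was called with each array left out.

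The proximal membrane arm had the smallest differences, with 3 of 7 genes higher, 0 lower and a median log2 difference of 0.08 by the brightest probe. Beside this count, 7.61% of all genes and 17% of all probes over a log2 of 12 were called higher. Ndufa10 had 12.84, 12.78, 12.72 and 12.66 in DMSO and 12.95, 13.13, 13.11 and 13.22 in treated cells. Its lowest treated array lay just above its highest DMSO array, and it rose 1.28-fold (0.35 ± 0.07, adjusted p = 0.0178), a call that ended without DMSO 3 (0.0566) or treated 2 (0.0581). Ndufa3 rose 1.12-fold (0.16 ± 0.03, adjusted p = 0.0165, and 0.0537 without DMSO 3) and Ndufa1 1.12-fold (0.16 ± 0.03, adjusted p = 0.0219). Ndufa1, a small subunit that is needed for assembly of the enzyme, lost its call without DMSO 2, DMSO 3, DMSO 4 or treated 2 (up to 0.0714). Ndufa13, also known as GRIM-19, was the brightest of the 40 genes. It had 14.67, 14.71, 14.65 and 14.75 in DMSO and 14.71, 14.77, 14.82 and 14.74 in treated cells, overlapping groups with a difference of 0.06 (95% interval -0.03 to 0.16). Ndufc2 (0.07, adjusted p = 0.713) and both probes of Ndufa8 (0.08 and 0.10) did not pass. Ndufc1 had a log2 difference of 0.00 (95% interval -0.07 to 0.06) on its bright probe and 0.35 ± 0.10 on a dimmer one (adjusted p = 0.0668, and 0.0403 without treated 3).

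For the distal membrane arm, the Ndufb genes and the acyl carrier protein gene Ndufab1 were counted here. This arm held the largest differences: 8 of 11 genes rose by the brightest probe, 0 fell, and the median log2 difference was 0.56. Of all genes, 7.61% were called higher by the brightest probe. Of all probes, 15.9% between a log2 of 7 and 10, 21.8% between 10 and 12 and 17% over 12 were called higher. Ndufb4 had 8.14, 8.73, 8.18 and 8.15 in DMSO and 9.74, 9.71, 9.50 and 9.29 in treated cells. It rose 2.40-fold (1.26 ± 0.17, adjusted p = 0.0056), although DMSO 2 stood above its group. RefSeq lists further genes named Ndufb4b and Ndufb4c, and the probe's own sequence was not used here, so signal from such copies cannot be told apart. Ndufb2 had 9.19, 9.50, 9.32 and 9.13 in DMSO and 10.18, 10.36, 10.40 and 10.05 in treated cells (1.95-fold, 0.96 ± 0.11, adjusted p = 0.00305). Ndufb5 had 10.12, 10.23, 10.15 and 10.24 in DMSO and 11.23, 11.25, 11.30 and 10.69 in treated cells (1.91-fold, 0.93 ± 0.14, adjusted p = 0.00837). All 3 genes were separated between the groups, with treated 4 the lowest treated array for each.

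Further along the same arm, Ndufb9 had 11.51, 11.89, 11.63 and 11.83 in DMSO and 12.40, 12.33, 12.26 and 12.25 in treated cells (1.51-fold, 0.59 ± 0.09, adjusted p = 0.00897). Ndufb10 had 11.06, 11.16, 11.21 and 11.37 in DMSO and 11.79, 11.72, 11.75 and 11.78 in treated cells (1.48-fold, 0.56 ± 0.06, adjusted p = 0.00305). The treated arrays of Ndufb10 lay within 0.07 of each other. Bright probes of this arm moved less. Ndufb6 had 14.19, 14.18, 14.24 and 14.13 in DMSO and 14.45, 14.36, 14.42 and 14.41 in treated cells, without overlap (1.17-fold, 0.23 ± 0.03, adjusted p = 0.00805), and its dimmer probe rose 1.66-fold (0.73 ± 0.13, adjusted p = 0.0148, and 0.0501 without treated 2). Ndufb8, one of the brightest members, had 14.30, 14.36, 14.26 and 14.31 in DMSO and 14.39, 14.42, 14.40 and 14.33 in treated cells and did not pass (0.08, adjusted p = 0.241). Ndufb3 rose 1.16-fold (0.22 ± 0.03, adjusted p = 0.00585). Ndufb7 rose 1.27-fold (0.35 ± 0.08, adjusted p = 0.0413), and this call ended whichever array was left out (adjusted p 0.0539 to 0.0991).

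Ndufab1, which also serves as the acyl carrier of mitochondrial fatty acid synthesis, had the largest difference among the genes that did not pass. Its single dim probe had 5.51, 5.58, 5.58 and 5.94 in DMSO and 5.94, 6.58, 6.65 and 5.999 in treated cells. The highest DMSO and the lowest treated array nearly met, and the difference was 0.64 ± 0.22 (adjusted p = 0.135). With array weights it passed (0.78, adjusted p = 0.037). Ndufb11, with a pair of dim probes, had differences of 0.15 ± 0.16 and 0.45 ± 0.15 (adjusted p = 0.799 and 0.112).

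**Figure D2:**
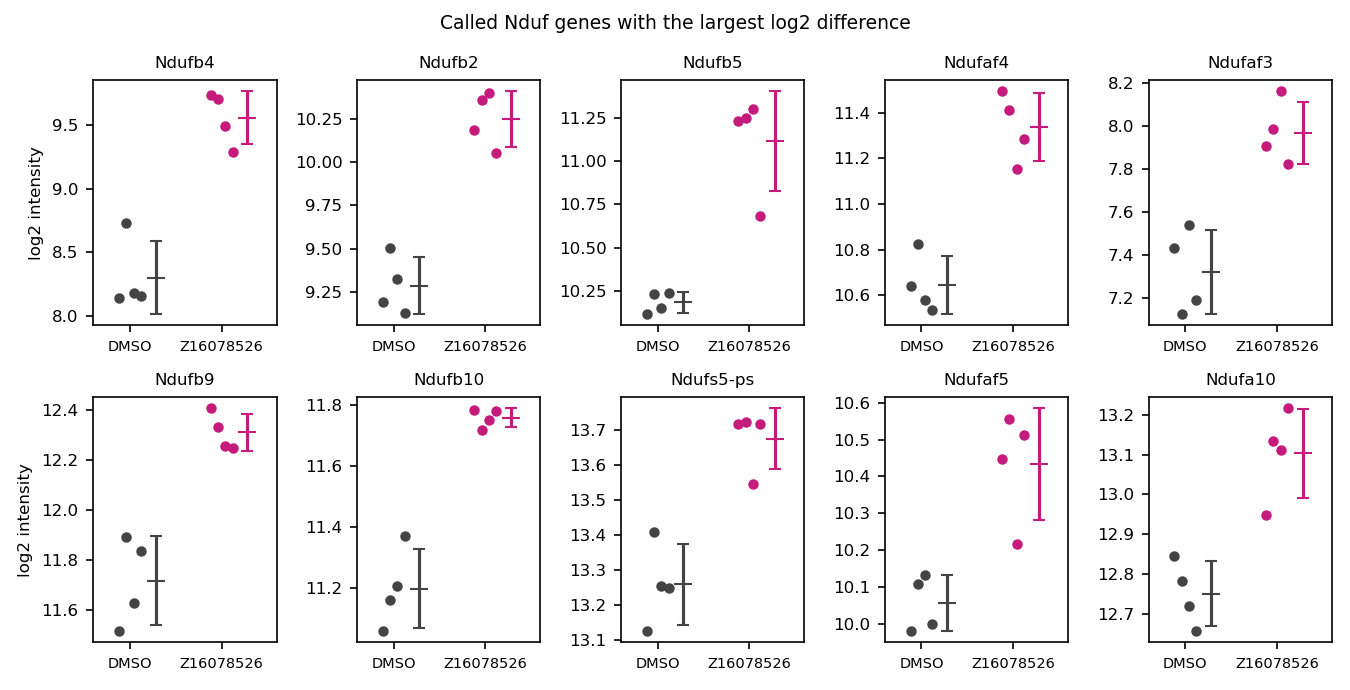
Log2 intensity (y axis, scaled separately in each panel) on the 4 DMSO and 4 Z16078526 arrays for the 10 called Nduf genes with the largest log2 difference, by their brightest probe. Points are arrays and the bars beside them are mean ± SD, and in every panel the treated points lie above the DMSO points, from Ndufb4 (8.30 to 9.56 between the group means) to Ndufa10 (12.75 to 13.10).

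Assembly factors rose in 3 of 5 genes and fell in 0 by the brightest probe. Of all probes, 15.9% between a log2 of 7 and 10 and 21.8% between 10 and 12 were called higher. Ndufaf4, which works with Ndufaf3 in building the Q module, had 10.64, 10.82, 10.58 and 10.54 in DMSO and 11.50, 11.41, 11.15 and 11.29 in treated cells (1.61-fold, 0.69 ± 0.09, adjusted p = 0.00575). Ndufaf3 had 7.43, 7.12, 7.54 and 7.19 in DMSO and 7.90, 7.98, 8.16 and 7.82 in treated cells (1.57-fold, 0.65 ± 0.12, adjusted p = 0.0157, and 0.0513 without treated 2). For these partners the groups did not overlap. Ndufaf5, whose human counterpart hydroxylates an arginine of NDUFS7, had 9.98, 10.11, 10.13 and 10.00 in DMSO and 10.45, 10.56, 10.22 and 10.51 in treated cells (1.30-fold, 0.38 ± 0.08, adjusted p = 0.0279). Treated 3 was the lowest treated array, and the call held only without it (adjusted p up to 0.0824 with another array left out). The dimmer Ndufaf5 probe rose 2.04-fold (1.03 ± 0.20, adjusted p = 0.0212), and lost its call without DMSO 1, DMSO 3, DMSO 4, treated 3 or treated 4 (up to 0.0646). Ndufaf1, which acts early in building the membrane arm, did not pass (0.15 ± 0.08, adjusted p = 0.386).

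Ndufaf7 was the exception in direction. Its human counterpart is an arginine methyltransferase needed to assemble the enzyme. The brightest probe had 9.43, 9.43, 9.41 and 9.51 in DMSO and 9.29, 9.25, 8.63 and 9.05 in treated cells, so every treated array lay below every DMSO array. The difference of -0.39 ± 0.15 did not pass (adjusted p = 0.164), and passed when only probes of mean log2 over 7 were tested (0.0192) or with a robust variance estimate (0.0295). Both other Ndufaf7 probes lay at the floor on all arrays. Of the 53 Nduf probes this was the only one whose groups were apart with treated lower. In the whole table, 2188 of 25697 probes had groups apart in that direction.

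Of 13 assembly factor genes without an Nduf symbol, 12 were measured. By their brightest probe 3 rose and 0 fell, with a median log2 difference of 0.18 over the 11 above the floor. Those 11 had mean log2 levels of 8.49 to 11.78. Of all probes, 15.9% between 7 and 10 and 21.8% between 10 and 12 were called higher, so 3 of 12 is near that share. Tmem126b, a subunit of the MCIA complex that assembles the proximal membrane arm, rose 1.52-fold (0.60 ± 0.12, adjusted p = 0.0211). Tmem186, a further MCIA component, rose 1.23-fold (0.30 ± 0.06, adjusted p = 0.0254), and Foxred1 1.11-fold (0.15 ± 0.03, adjusted p = 0.0276). The MCIA genes Ecsit (-0.02) and Acad9 (0.24, adjusted p = 0.2) did not pass, nor did Timmdc1 (0.30, adjusted p = 0.21). Second probes of Foxred1 (0.68 ± 0.09, adjusted p = 0.00606) and Aifm1 (0.80 ± 0.14, adjusted p = 0.013) gave larger differences than their brightest probes, which read 0.15 and 0.03. The 3 dimmer Foxred1 probes, at 0.15, -0.02 and 0.04, did not pass, and the dimmest Aifm1 probe was at the floor. The second and the third probe of Lyrm2 (0.21 and 0.03, beside 0.19 for its brightest) did not pass. Nubpl was at the floor throughout, and none of the subunits encoded in mitochondrial DNA was analysed here.

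A pair of further probes carried Nduf names outside this scheme. Ndufa4, first described as a complex I subunit and later assigned to complex IV, had 14.22, 14.33, 14.27 and 14.27 in DMSO and 14.40, 14.45, 14.33 and 14.45 in treated cells. Its groups overlapped at 14.33 and the difference of 0.14 ± 0.04 did not pass (adjusted p = 0.0864), though it passed without treated 3 (0.047), with array weights (0.0223) and when only probes of mean log2 over 7 were tested (0.0182). The probe named for Ndufs5-ps had 13.13, 13.41, 13.26 and 13.25 in DMSO and 13.72, 13.72, 13.54 and 13.72 in treated cells, and rose 1.33-fold (0.42 ± 0.07, adjusted p = 0.0121). Transcripts of the pseudogene and of Ndufs5, the gene it is named after, cannot be told apart here.

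The core and supernumerary subunits did not separate by count. Of 6 core genes measured, 3 rose (Ndufv2, Ndufs7 and Ndufs8), with a median log2 difference of 0.18 over the 5 above the floor, and of 27 supernumerary genes 17 rose, with a median of 0.23. No test of the difference between these groups was made. Among all genes, 7.61% were called higher by the brightest probe.

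The modules differed in the brightness of their probes, above all the distal arm. The median log2 intensity of the brightest probes was 10.65 in the distal arm, 13.88 in the N module, 13.56 in the Q module and 13.57 in the proximal arm. Among probes with a mean log2 over 12, the median difference was 0.22 in the N module (12 probes), 0.20 in the Q module (5), 0.22 in the distal arm (4) and 0.10 in the proximal arm (9). On this matched range the distal arm and the N module had the same median, and the proximal arm stayed lowest. Up to a log2 of 12 and above the floor, the distal arm had 9 probes with a median of 0.64. The N module had 2 there (0.24), the Q module 1 (1.14) and the proximal arm 0. Most distal arm probes therefore had few counterparts of like brightness in the other modules. Assembly factor probes all lay below a log2 of 12, where their median difference over 6 probes was 0.51. Intensity of a probe is not transcript level, since probes differ in binding, so these classes describe the readout.

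Across the 50 Nduf probes above the floor, the log2 difference fell with mean log2 intensity, with Pearson's r of -0.47 and Spearman's rho of -0.49. The Nduf probes are not independent, sharing the 8 arrays and in part their genes. Over all 11546 probes above the floor on all arrays, Pearson's r was -0.00481 and Spearman's rho -0.00862. Of 32 Nduf probes over a log2 of 12, 17 were called higher, with a median difference of 0.20, where 17% of all such probes were called higher. Between 10 and 12, 7 of 8 were called, with a median of 0.63, against 21.8% of all probes there. Between 7 and 10, 5 of 8 were called, with a median of 0.80, against 15.9%. Of 2 Nduf probes up to 7, those of Ndufab1 and Ndufb11, 0 were called, against 2.79%. In each of the 3 brighter classes the called share of Nduf probes was above that of the class. Probes called higher over the whole table had a median log2 difference of 0.54 between 7 and 10, 0.41 between 10 and 12 and 0.31 over 12, values that depend in part on the threshold of the call. Nduf probes called higher had medians of 1.03, 0.69 and 0.24 in the same classes.

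**Figure D3:**
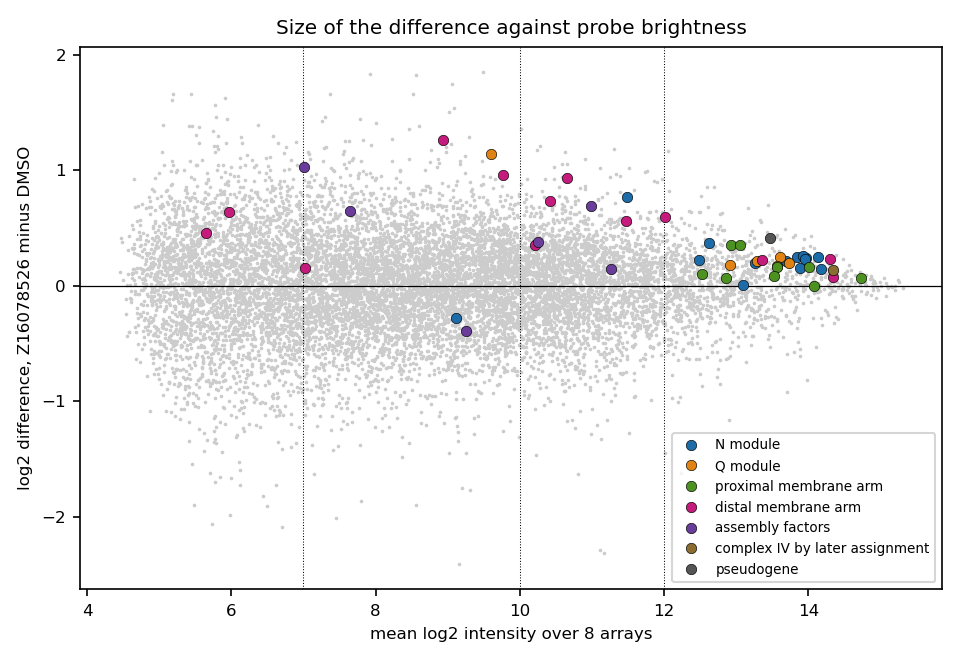
Log2 difference between Z16078526 and DMSO (y axis) against mean log2 intensity over the 8 arrays (x axis). Grey points are all 11546 probes above the floor on all arrays, coloured points the 50 Nduf probes by module, and dotted lines mark log2 levels of 7, 10 and 12. Nduf probes over 12 crowd between 0.00 and 0.59, while those between 7 and 12 reach 1.26.

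The same relation could be looked at within a gene, where brightness differs and the transcript's gene does not. For 8 genes at least 2 probes were above the floor on all arrays, giving 15 pairs, and in 11 the dimmer probe had the larger log2 difference. The gap was 0.94 for Ndufa5, 0.76 between the outer probes of Ndufs4, 0.65 for Ndufaf5, 0.50 for Ndufb6, 0.36 for Ndufc1, 0.30 for Ndufb11 and 0.02 for Ndufa8. Ndufv3 went the other way, by -0.52 between the brightest and the dimmest probe. Among 36 genes outside the Nduf set, the next brightest probe had the larger difference in 13, with a median gap of -0.07. Those genes, unlike the Nduf genes, were picked for a brightest probe over a log2 of 12 that was called higher. In a two-sided exact permutation test over the 70 assignments of the arrays, 8 of the 15 pairs had the smallest p the design allows (0.0286), among them Ndufa5, Ndufb6, Ndufc1 and 5 of the 6 pairs of Ndufs4. After adjustment over the 15 pairs 0 passed 0.05 (smallest adjusted p = 0.0536). A pair at the smallest p could pass this adjustment only together with many others at it. The outcome therefore does not show that probes of a gene agree. Pairs of Ndufs4 and Ndufv3 share probes and are not independent. Which transcripts or exons the probes read was not analysed here.

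**Figure D4:**
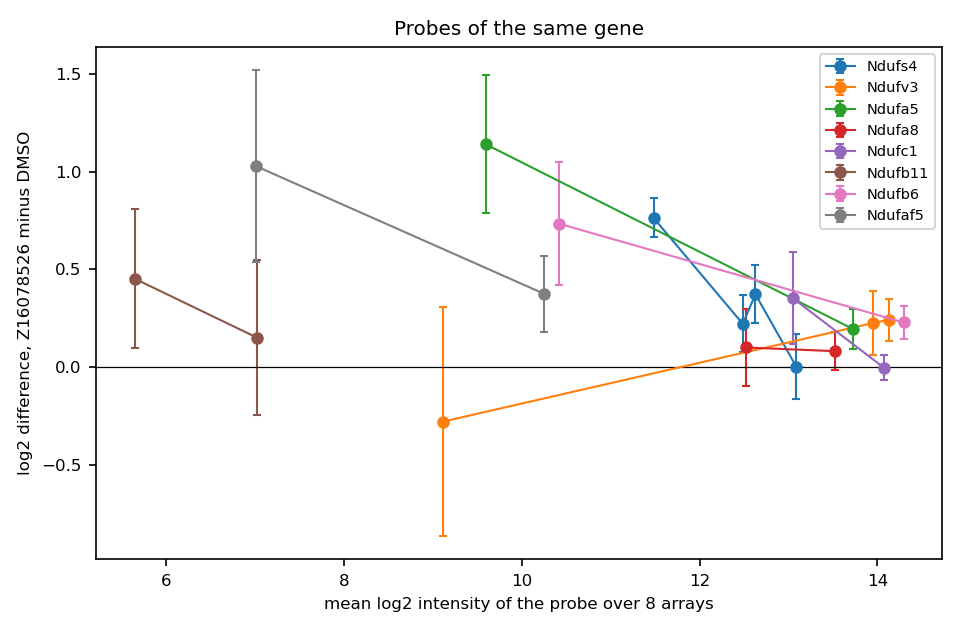
Log2 difference between Z16078526 and DMSO (y axis) of each probe against its mean log2 intensity (x axis) for the 8 Nduf genes with at least 2 probes above the floor on all arrays. Lines join probes of the same gene and bars are 95% intervals from the limma fit; the lines of Ndufa5, Ndufb6 and Ndufaf5 slope down to the bright side and that of Ndufv3 slopes up.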

How the data were processed

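The authors deposited 1 table of linear probe intensity for 8 arrays. The submitters' processing notes name GenomeStudio without settings. Per the labels, biotin-labelled RNA followed an Agilent protocol, although the probe names are those of Illumina. In the deposited intensities 28.28% to 28.44% of an array's values lay below 0, and all 8 columns shared the upper quartile (307.989) and maximum (41175). The steps behind this pattern are not stated. The deposited intensities were set to at least 16 and log2 was taken. With 4 arrays per group, their number sets the precision.

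Every probe was fitted on its own with limma 3.58.1 in R 4.3.3 (lmFit, eBayes with a variance trend, two-sided), with no covariate beside the group, and p-values were adjusted by Benjamini-Hochberg over all 25697 probes. Prior degrees of freedom were 0.582. Calls are at an adjusted p under 0.05, and intervals of 95% come from this fit. Symbols came from the platform's probe table (23978 probes with 1 symbol, 0 with several, 1719 with none), and all 40 Nduf symbols were unchanged in RefSeq. Values per array were given for the 10 called genes of largest difference, the 4 brightest genes, genes whose probes disagreed in their call, any probe called lower (there was none) and the uncalled gene of largest difference. Values of Ndufv1, Ndufs8, the Ndufa5 probes, Ndufaf7 and some others were added after they were seen. Module and pathway lists and members were chosen with earlier results of these data known. Alternatives were scaling, cyclic loess, floor, pseudocount, filters on dim probes, variance settings, array weights, the replicate number, gene summaries, a 1.2-fold minimum and each array left out.

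Same-numbered arrays did not pair: the deviations of numbers 1 to 4 correlated with r of -0.0541, 0.0403, -0.175 and 0.0984.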

Additional observations from a re-analysis of the deposited data

Results flagged for a closer look

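Within each group of 4 arrays, the extreme array of each Nduf probe was compared with its neighbour (Dixon's ratio above its 95% critical value). Of 100 groups tested, 5 stood out, and chance alone gives about 1 in 20. In DMSO 2, Ndufb4 was at 8.73 where the next array was at 8.18, and Ndufv2 was at 13.72 where the next was at 13.56. In DMSO 4 the second probe of Ndufv3 was at 14.03 and the next array at 13.80. Among treated arrays, Ndufb5 was at 10.69 on treated 4 where the next was at 11.23, and Ndufs5-ps at 13.54 on treated 3 where the next was at 13.72. Ndufb4, Ndufb5 and Ndufs5-ps kept their calls with each array left out.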

How the results depend on the processing

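Of the 29 Nduf probes called higher, 14 were called with each array left out in turn, and 7 under all 18 settings that kept probes as units. Leaving out an array gave 17 to 26 Nduf probes called higher (0 lower), 13 to 21 genes, and 1086 to 1715 probes higher and 982 to 1596 lower over the whole table. The replicate number as a block gave 8 Nduf probes and 6 genes higher, and 616 probes higher and 580 lower in the whole table. No array of a group had its own number as best match except number 4. A change over 1.2-fold left 16 probes and 11 genes. Ndufaf7 was the 1 Nduf probe called lower with dim probes left out or with robust variance. Averaging a gene's probes called Ndufs4 and not Ndufv3. Under the other settings these counts stayed within 1.5 times their values, and no called gene named by the rule turned sign. The causes were not tested.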
